A study of Mus musculus with 2 samples.

Results

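Alpha and beta tubulin isotypes, the near-identical proteins whose dimers build microtubules, were followed in the testis transcriptomes of 2 mouse libraries. The genes taken were the 10 named isotypes Tuba1a, Tuba1b, Tuba1c, Tuba3a, Tuba3b, Tuba4a, Tubb2a, Tubb2b, Tubb3 and Tubb4b, found by symbol among 18722 loci. Of these, 9 were in the table and all 9 had at least 1 CPM, a count scaled to the library total, in 1 library. Tubb3, the beta isotype typical of neurons, was not analysed here. The genes were chosen by name together with their counts and length-scaled levels in both libraries, so their levels and ratios are given as a description and support nothing further.

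The control library (shControl, genotype WT) came from testis with a control hairpin RNA and the knockdown library (shDmrt1, genotype Dmrt1 knockdown) from testis with a hairpin aimed at Dmrt1, whose product regulates transcription in the Sertoli cell and the spermatogonium. Both were made from RNA of male C57BL/6J mice at 16 weeks of age. The labels do not say how the hairpins reached the testis or how many testes or mice went into a library. With 1 library per group there were no replicates and no test between groups, so "higher" and "lower" compare 2 libraries and not the conditions.

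Microtubules are hollow polymers of alpha and beta tubulin. They form the mitotic and meiotic spindles, the manchette that shapes the spermatid head, the axoneme of the sperm tail and, in Sertoli cells, the tracks along which germ cells are moved through the epithelium. Mammals carry several genes for each subunit, and their products differ mainly in the acidic tail at the carboxyl end, where enzymes add or remove tyrosine, glutamate and glycine. Tuba3a and Tuba3b are known in mouse as alpha tubulins of the male germ line.

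The coding ends of 7 of the genes show how alike the isotypes are and where they differ. The last 45 coding bases of 1 GENCODE M21 transcript for each of them are printed 5′ to 3′, with the last sense codon in capitals and the stop codon after it. The alpha tubulins come first.
Tuba1c: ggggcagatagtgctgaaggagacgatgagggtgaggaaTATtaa
Tuba3a: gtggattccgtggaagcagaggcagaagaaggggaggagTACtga
Tuba3b: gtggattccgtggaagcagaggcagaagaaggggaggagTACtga
Tuba4a: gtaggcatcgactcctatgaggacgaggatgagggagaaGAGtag
Tubb2a: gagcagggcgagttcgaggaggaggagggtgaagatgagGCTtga
Tubb2b: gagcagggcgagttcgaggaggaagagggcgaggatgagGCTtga
Tubb4b: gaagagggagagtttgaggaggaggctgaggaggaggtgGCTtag

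Tuba3a and Tuba3b have the same coding end, base for base. Tuba4a is the alpha isotype known for lacking the final tyrosine, and its last sense codon, GAG, differs from the TAC or TAT of the other alpha genes printed. Over the whole coding sequence, Tuba3a and Tuba3b were 97.0% identical, with 41 mismatched bases of 1353. Tuba1a and Tuba1b were 98.3% identical, with 23 mismatched bases, and Tuba1c was 97.1% identical to Tuba1a and 97.9% to Tuba1b. Tubb2a and Tubb2b were 96.5% identical, with 47 mismatched bases. Between these groups identity was lower, for example 84.7% for Tuba1a with Tuba4a and 83.6% for Tubb2a with Tubb4b.

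Such likeness limits how reads can be told apart. The share of 100-base windows of the coding sequence that also occur, on either strand, in a transcript of another annotated gene was 81.5% for Tuba1a, 90.9% for Tuba1b and 80.4% for Tuba1c. It was 45.04% for Tubb2a, 46.7% for Tubb2b and 35.3% for Tubb4b, whose most frequent match was the pseudogene Tubb4b-ps1. It was lowest for Tuba3a at 11.3%, Tuba3b at 13.2% and Tuba4a at 0. With 50-base windows the shares were 34.5% for Tuba3a, 36.0% for Tuba3b, 2.39% for Tuba4a and 61.1% for Tubb4b, and they ran from 60.0% to 95.6% for the other 5 genes. The read length and the handling of reads that match several genes were not given in the sources used here, so the sums over near copies are reported beside the single genes.

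The libraries differed in much more than tubulins. Counts summed to 17846426 in shControl and 24594371 in shDmrt1. Dmrt1 itself had 852 counts in shControl against 39 in shDmrt1, for a log2 ratio of -4.45 (95% counting interval -4.97 to -4.01) on counts scaled by the trimmed mean of M values (TMM). Of the labelled tissue's defining germ cell genes, 6 spermatogonial markers summed to 199 and 12.0 CPM, 9 spermatocyte markers to 256 and 53.3 CPM, and 8 spermatid markers to 39.3 and 1.14 CPM. Hspa2 alone held 109 and 50.2 CPM of the spermatocyte sums, so the other spermatocyte markers had few reads in shDmrt1. Spermatid genes were scarce even in the control, where Prm1, which packs sperm DNA, had 43 counts. Markers of Sertoli cells (10 genes) summed to 1266 and 110 CPM and those of Leydig cells (7 genes) to 23376 and 240 CPM. Markers of macrophages and monocytes summed to 413 and 4374 CPM, of neutrophils to 10.5 and 877 CPM, and of fibroblasts to 1329 and 8199 CPM. In such bulk samples, fewer cells of a type and less RNA per cell cannot be told apart.

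Of the 9 isotypes, 4 were higher and 4 lower in the knockdown library and 1 was neither, where a gene counts as higher or lower when its ratio is at least 1.5-fold and its 95% counting interval excludes 1. By the same rule 29.7% of the 15104 genes tested were higher and 32.5% lower. Tuba4a, Tubb2a, Tuba1b and Tubb2b were higher. Tuba3b, Tuba3a, Tuba1a and Tubb4b were lower, and Tuba1c was neither. The median log2 ratio of the 9 was 0.34, and it was the same with Tuba3b, which had 0 counts in the knockdown library, at its bound. Over all genes tested the median was -0.02. Scaling by library totals lowered the log2 ratios of all genes by a median of 0.44 and left 2 isotypes higher and 4 lower, because Tuba1b and Tubb2b then missed 1.5-fold. By library totals 20.6% of all genes tested were higher and 45.6% lower, so higher genes made up 31.1% of those past the rule, against 47.8% with TMM. With TMM and the whole interval required to lie beyond 2-fold, 2 isotypes were higher, beside 17.8% of all genes tested, and 2 lower, beside 20.8%.

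**Figure D1:**
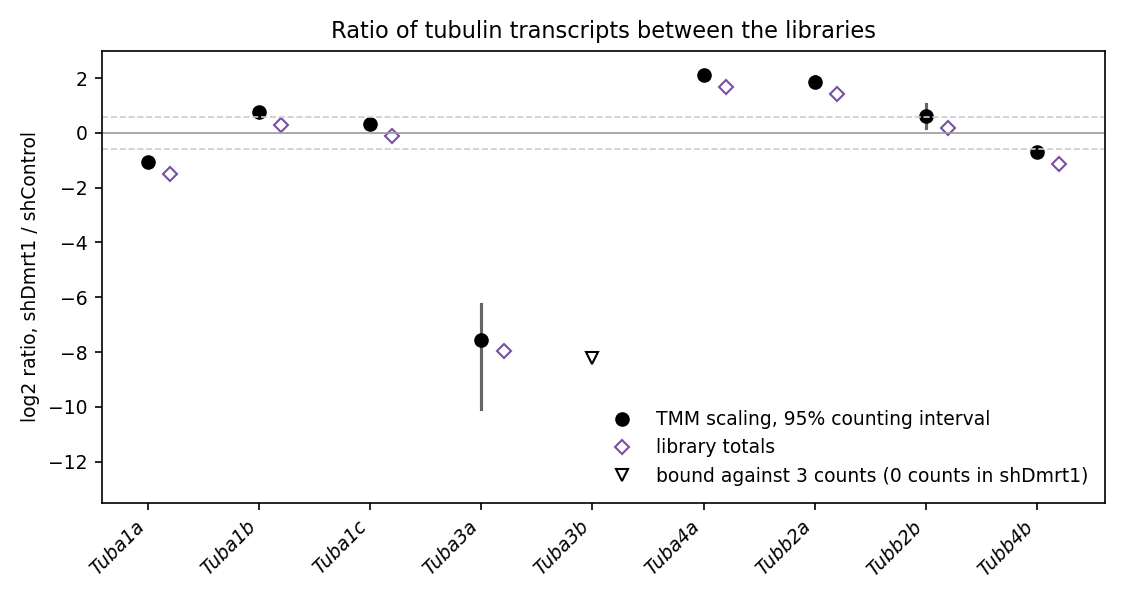
Log2 ratio of knockdown over control for the 9 tubulin isotypes. Black points are TMM-scaled ratios with their 95% counting interval, open diamonds use library totals, dashed lines mark 1.5-fold, and the open triangle is the bound for Tuba3b, which had 0 counts in the knockdown library. Tuba3a and Tuba3b lie far below the other 7 genes.

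The germ line alpha tubulins were nearly all counted in the control library. Tuba3b (ENSMUSG00000067338, chromosome 6, 145615757 to 145621479 on GRCm38, protein-coding) was counted 870 times in shControl and 0 times in shDmrt1. Set against 3 counts, the floor used for a count of 0, it was at least 294-fold lower. Its deposited FPKM, a level per gene length, was 28.0 in shControl and 0 in shDmrt1. The deposited FPKM does not follow from the deposited counts for every gene, since Tubb1, with 0 counts in shControl, is listed there at 0.0379 FPKM. Tuba3a (ENSMUSG00000067702, chromosome 6, 125278274 to 125286042) had 655 counts in shControl against 3 in shDmrt1, for a log2 ratio of -7.57 (-10.07 to -6.24), and 24.4 and 0.142 FPKM. Both genes were therefore well covered in the control library and at or near no reads in the knockdown library, although the latter was the deeper of both.

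Tuba3a and Tuba3b were also summed, so that a read placed on the wrong one of them makes no difference. Together they had 1525 counts in shControl against 3 in shDmrt1, for a log2 ratio of -8.79 (-11.29 to -7.46). Of their 50-base windows, 4.52% for Tuba3a and 6.06% for Tuba3b also occur in Gm5366, which the sum leaves out. Among all 15104 genes tested, 0.861% had a lower ratio than Tuba3a. The authors' deposited table gives log2 fold changes of -7.06 for Tuba3a and -8.76 for Tuba3b and calls both down, from 1 library per group. All 23 markers of spermatogonia, spermatocytes and spermatids had lower ratios too, and 6 of them had 0 counts in the knockdown library, none in the control. Sertoli and Leydig cell markers, 10 of 10 and 7 of 7, were lower as well. Beside these marker counts, 32.5% of all genes tested were lower with TMM and 45.6% by library totals. The part of any of these cell types in the Tuba3 values was not tested. The nearest tested protein-coding genes on either side of Tuba3a and of Tuba3b had log2 ratios between 0.12 and 0.42, so none of the 4 was past 1.5-fold.

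The start regions of Tuba3a and Tuba3b are shown because both genes were lowest together. Each window runs from 250 bases before to 50 after the start in RefSeq's annotation of GRCm38.p6, printed 5′ to 3′ on the gene's strand, with motif matches in capitals. The first is chr6:125286032-125286331 on the minus strand and the second chr6:145615713-145616012 on the plus strand.
Tuba3a: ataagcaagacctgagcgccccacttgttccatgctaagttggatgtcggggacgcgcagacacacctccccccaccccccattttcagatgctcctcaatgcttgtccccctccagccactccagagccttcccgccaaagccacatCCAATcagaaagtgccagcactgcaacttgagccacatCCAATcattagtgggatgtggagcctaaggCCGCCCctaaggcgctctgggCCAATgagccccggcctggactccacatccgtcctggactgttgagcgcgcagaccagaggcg
Tuba3b: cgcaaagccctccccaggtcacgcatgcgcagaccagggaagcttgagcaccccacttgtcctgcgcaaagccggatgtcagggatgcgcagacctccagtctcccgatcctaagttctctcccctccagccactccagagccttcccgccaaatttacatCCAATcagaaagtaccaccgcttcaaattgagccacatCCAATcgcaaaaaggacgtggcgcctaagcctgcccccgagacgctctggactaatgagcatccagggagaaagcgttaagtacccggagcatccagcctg

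Aligned end to end, the 2 windows were 60.9% identical, well below their coding sequences. Of 4 motifs searched on both strands, CCAAT, the CCAAT box, occurred 3 times in the Tuba3a window and 2 times in the Tuba3b window, and 37.4% of 32544 promoter windows held it. The GC box GGGCGG occurred 1 time in Tuba3a and 0 times in Tuba3b, against 35.9% of all windows. The TATA box TATAAA, in 13.6% of all windows, was in neither. ACANTGT, a core like that of DMRT1 sites, was in neither and in 7.37% of all windows, and it was also in none of the other 6 isotype windows in the table. These matches overlapped each other nowhere in the 2 windows and describe letters only.

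Within the Tuba1 group, whose products are the common alpha tubulins of most cells, levels shifted from one copy to another while their sum stayed near level. Tuba1a (ENSMUSG00000072235), the alpha isotype best known from the developing brain, had 5255 and 2559 counts. Its level was 187 FPKM in shControl and 91.8 FPKM in shDmrt1. It was 2.08-fold lower, a log2 ratio of -1.06 (-1.13 to -0.99). Tuba1b (ENSMUSG00000023004), a ubiquitous isotype, had 4767 and 8120 counts. Its level was 161 FPKM in shControl and 279 FPKM in shDmrt1. It was 1.68-fold higher, a log2 ratio of 0.75 (0.70 to 0.80), and 0.31 by library totals. Tuba1c (ENSMUSG00000043091), also widely expressed, had 1972 and 2532 counts, at 60.2 and 79.2 FPKM. Its log2 ratio of 0.34 (0.25 to 0.43) was below 1.5-fold, and it turned to -0.10 by library totals.

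The order of both leading alpha genes was thus opposite in the 2 libraries. Tuba1a stood at 1.16 times the FPKM of Tuba1b in the control and at 0.329 times in the knockdown library, a contrast that no scaling between libraries can alter. Summed over the 3 genes, counts were 11994 and 13211, a log2 ratio of 0.12 (0.08 to 0.15), or -0.32 by library totals. The 3 genes lie together on chromosome 15, at 98931425 to 98934565 for Tuba1b, 98949837 to 98953703 for Tuba1a and 99029891 to 99038110 for Tuba1c. Tuba1b and Tuba1a, which differed in direction, are neighbours on the same strand, 15272 bases from the end of the first to the start of the second. Since most of their coding windows are shared, part of the counts of each gene may be reads of another.

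Tuba4a showed the highest ratio of the 9 isotypes. Tuba4a (ENSMUSG00000026202, chromosome 1, 75214228 to 75219865), whose product carries no encoded final tyrosine and is known from muscle and platelets, had 453 and 2016 counts. It stood at 12.2 FPKM in shControl and 60.3 FPKM in shDmrt1. It was 4.38-fold higher, a log2 ratio of 2.13 (1.99 to 2.28), and 2.301 from the FPKM values. The authors' deposited table gives 2.12 and calls it up, the only isotype with that call. That table calls Tuba1a, Tuba1b, Tuba1c, Tubb2a, Tubb2b and Tubb4b normal. Its header names 2 thresholds, 2-fold in place of 1.5-fold and a false discovery rate of 0.01. Tuba1a and Tubb2a, at -1.07 and 1.86 there, were past 2-fold, so the fold threshold alone does not account for their call. Of the isotypes past the 1.5-fold rule here, only Tuba3a, Tuba3b and Tuba4a are thus called changed there. Tuba4a overlaps Stk16, a kinase gene on the other strand, which had 586 and 628 counts. Which strand was counted was not given in the sources used here, so reads of these genes cannot be told apart where they overlap. The nearest genes on either side, Glb1l and Dnajb2, had log2 ratios of -0.16 and -0.81.

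**Figure D2:**
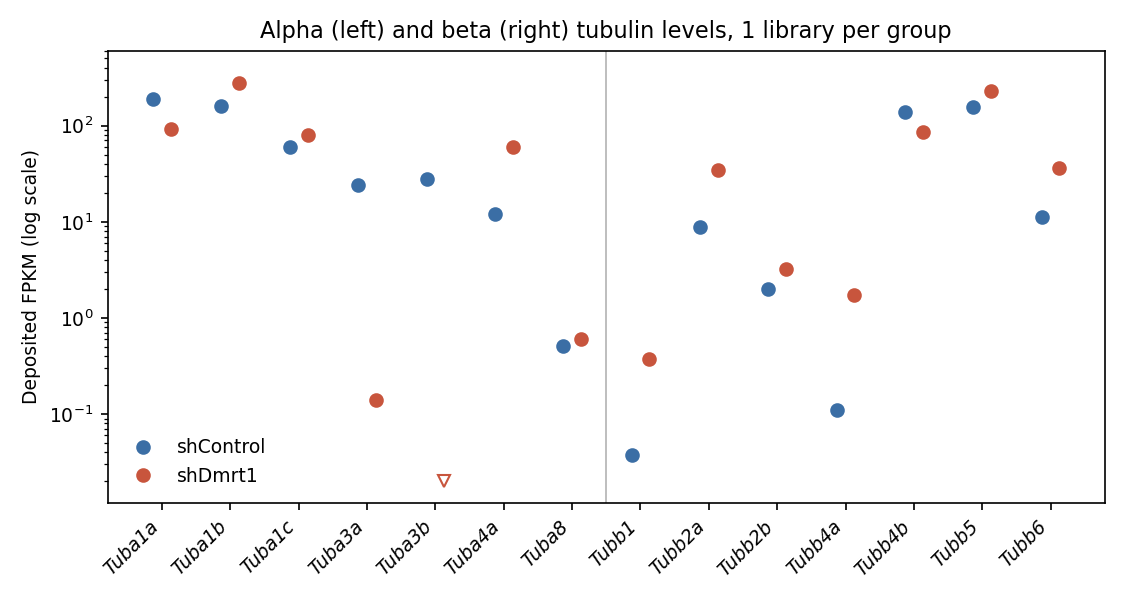
Deposited FPKM, on a log axis, of 7 alpha (left) and 7 beta (right) tubulin genes in the shControl and shDmrt1 libraries, with 1 point per library. The open triangle marks Tuba3b, listed at 0 in the knockdown library and drawn at the foot of the axis. Tuba1a lies above Tuba1b in the control and below it in the knockdown library.

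Among the beta tubulins, the class II genes were higher and Tubb4b lower. Tubb2a (ENSMUSG00000058672, chromosome 13, 34074274 to 34078007), a beta isotype abundant in brain, had 250 and 931 counts, at 8.83 and 34.2 FPKM. It was 3.67-fold higher, a log2 ratio of 1.87 (1.67 to 2.08). Its near copy Tubb2b (ENSMUSG00000045136, chromosome 13, 34126748 to 34130466), 48741 bases away on the same strand, had 74 and 116 counts, at 1.98 and 3.24 FPKM. Its log2 ratio was 0.62 (0.20 to 1.07), or 0.18 by library totals, so it was only just past 1.5-fold with TMM. Summed, both had 324 counts in shControl against 1047 in shDmrt1, for a log2 ratio of 1.67 (1.49 to 1.86). Tubb2a exceeded Tubb2b in each library, at 4.46 times its FPKM in the control and 10.5 times in the knockdown library.

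Tubb4b (ENSMUSG00000036752, chromosome 2, 25222160 to 25224702), a beta isotype of many cell types that is also built into cilia and flagella, had 3848 and 2397 counts. Its level was 137 FPKM in shControl and 86.3 FPKM in shDmrt1. It was 1.63-fold lower, a log2 ratio of -0.70 (-0.78 to -0.63). Of 5 markers of motile ciliated cells in the table, 3 were lower and 1 higher, and their sum was 57.7 and 17.8 CPM. Rsph1 alone held 40.3 and 6.46 CPM of these sums. The higher marker was Foxj1, with 33 and 181 counts. The 8 neuronal markers, relevant to the class II genes and to Tuba1a, summed to 7.12 and 6.99 CPM. Single genes went opposite ways, with 4 of the 8 higher and 2 lower. Among the 6 with at least 1 CPM in 1 library, 3 were higher, 1 lower and 2 neither. Of all genes tested, 29.7% were higher and 32.5% lower. Elavl4 had 0 and 58 counts, 19.1-fold higher against the floor of 3 counts. Rbfox3 had 53 and 4 counts, and Snap25 had 9 and 0. Schwann cell markers summed to 41.7 and 60.4 CPM over 6 genes, and those of dividing cells to 225 and 281 CPM over 6. The part of these cells in the isotype values was not tested.

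Taking each subunit as a whole, the make-up of the alpha tubulin pool differed more than its size. The 7 alpha genes in the table summed to 473 FPKM in shControl and 511 FPKM in shDmrt1. Their summed counts had a log2 ratio of 0.10 with TMM and -0.34 by library totals, so the direction depends on the scaling. Tuba3a and Tuba3b together made up 11.1% of alpha tubulin FPKM in shControl and 0.0277% in shDmrt1. Tuba4a made up 2.57% and 11.8%. Tuba1a made up 39.5% and 17.97%, Tuba1b 34.0% and 54.6%, and Tuba1c 12.7% and 15.5%. The 3 Tuba1 genes together stayed the bulk of the pool, at 86.3% and 88.0%. Tuba8, an alpha isotype that was scarce here, held 0.107% and 0.118%.

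The 7 beta genes in the table, without Tubb3, summed to 314 and 391 FPKM. The log2 ratio of their summed counts was 0.34 with TMM and -0.10 by library totals. Tubb5, the beta isotype common to most cells, led in both libraries with 49.2% and 58.6% of beta tubulin FPKM. Tubb4b followed with 43.8% and 22.1%. Tubb2a and Tubb2b together held 3.44% and 9.57%, and Tubb6 held 3.59% and 9.25%. The beta genes kept the same order of level in both libraries, from Tubb5 through Tubb4b, Tubb6, Tubb2a, Tubb2b and Tubb4a to Tubb1. With 1 library per group there is no spread against which neighbours in either order could be set. The alpha sum was 1.51 times the beta sum in the control and 1.31 times in the knockdown library.

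**Figure D3:**
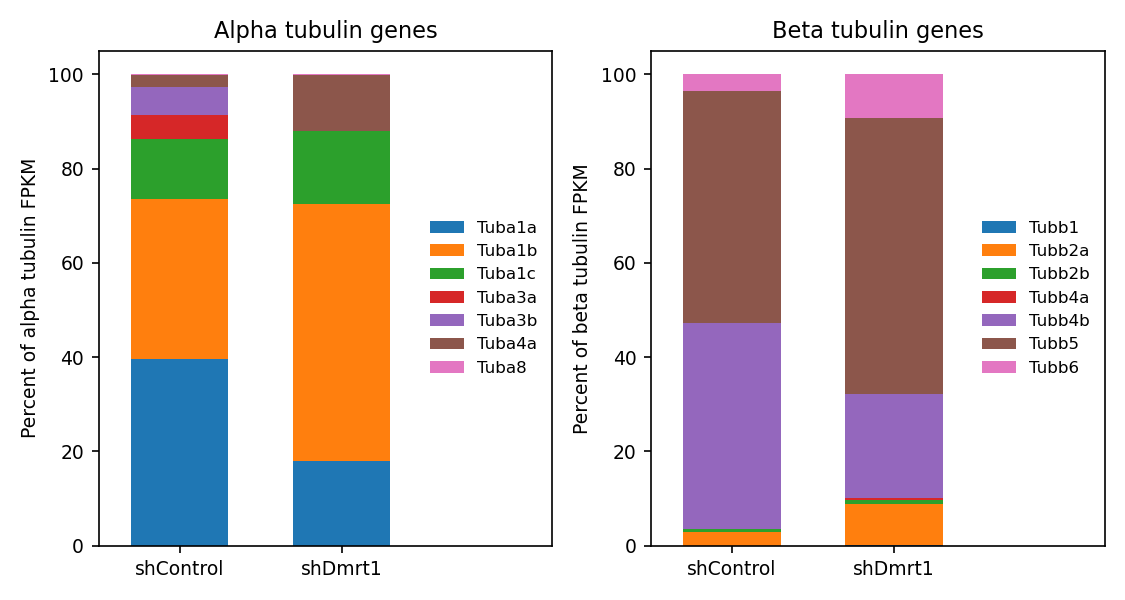
Share of summed alpha (left) and beta (right) tubulin FPKM taken by each gene, in percent, for the shControl and shDmrt1 libraries. Tuba3a and Tuba3b together take 11.1% of the alpha bar in shControl and 0.0277% in shDmrt1, while Tubb4b takes 43.8% and 22.1% of the beta bar.

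Of 10 other tubulin genes listed, 9 were in the table and 7 had at least 1 CPM in 1 library. Of these 7, 2 were higher, 1 lower and 4 neither, where 29.7% of all genes tested were higher and 32.5% lower. Their median log2 ratio was 0.53, or 0.08 by library totals. Tubb6, a beta isotype of many tissues, had 361 counts in shControl against 1091 in shDmrt1, for a log2 ratio of 1.57 (1.40 to 1.75). Tubb4a, a beta isotype of brain, had 4 counts in shControl against 69 in shDmrt1, for a log2 ratio of 3.93 (2.67 to 6.00). Tubb5 had 6985 counts in shControl against 10204 in shDmrt1, for a log2 ratio of 0.53 (0.48 to 0.57), below 1.5-fold. Tubd1, whose delta tubulin belongs to centrioles, had 193 and 102 counts and a log2 ratio of -0.94 (-1.30 to -0.59).

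The others of that list were scarce or level. Tubg1, which encodes the gamma tubulin that seeds microtubules, had 403 counts in shControl against 399 in shDmrt1, for a log2 ratio of -0.03 (-0.24 to 0.17). Tuba8 had 23 and 27 counts, Tube1, for the centriolar epsilon tubulin, 30 and 45, and Tubg2 10 and 19. Tubb1, the beta isotype of platelets, had 0 and 8 counts, so it was at least 2.63-fold higher. Tubal3 was not analysed here. Of 9 genes of the gamma-tubulin ring complex and its partners, 3 were lower and 6 neither. Among all genes tested 32.5% were lower and 29.7% higher, so the share lower was near that of all genes. The median log2 ratio of these 9 was -0.09, or -0.53 by library totals. The lower ones were Tubgcp5 at -0.92, Pcnt at -0.82, which encodes a scaffold of the centrosome, and Mzt1 at -0.81.

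Genes that fold tubulin were nearly level. Of 19 in the table, 3 were higher, 1 lower and 15 neither, where 29.7% of all genes tested were higher and 32.5% lower. Their median log2 ratio of 0.25 turned to -0.19 by library totals. Under that scaling 0 were higher and 2 lower, beside 20.6% and 45.6% of all genes tested. The cytosolic chaperonin, which folds newly made tubulin, had 8 subunit genes in the table. Of these only Cct6b, known as a testis form of its subunit, was past the rule, with 89 and 4 counts and a log2 ratio of -4.33 (-6.40 to -3.09). Of the cofactors that assemble the dimer, Tbca, which binds beta tubulin, had 991 and 1961 counts and a log2 ratio of 0.96 (0.85 to 1.08). The prefoldin gene Pfdn4 was at 0.99 and the small GTPase gene Arl2, a partner of cofactor D, at 0.59. Arl2 was only just past 1.5-fold, and with a prior count of 5 the list held 2 higher genes. Of 3 genes of the machinery that degrades tubulin messages when free dimers are plentiful, none was past the rule. Ttc5, which recognises the nascent tubulin chain, was at 0.40, Scaper at 0.13 and Cnot11 at -0.42.

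Genes of enzymes that modify tubulin were mostly lower in the knockdown library. Of 22 tested, 15 were lower, 3 higher and 4 neither, at a median log2 ratio of -1.69, beside -0.02 over all genes tested, of which 32.5% were lower and 29.7% higher. By library totals 17 were lower and 1 higher, where 45.6% of all genes were lower and 20.6% higher. Of the ligases that add glutamate or glycine to the tails, Ttll6 had 114 counts in shControl against 2 in shDmrt1, for a log2 ratio of -5.54 (-8.92 to -3.97), and Ttll13 had 137 counts in shControl against 8 in shDmrt1, for a log2 ratio of -4.04 (-5.36 to -3.10). Among the peptidases that shorten these chains, Agbl2 had 95 counts in shControl against 3 in shDmrt1, for a log2 ratio of -4.79 (-7.31 to -3.41). Hdac6, a cytoplasmic deacetylase of alpha tubulin, had 6583 counts in shControl against 738 in shDmrt1, for a log2 ratio of -3.18 (-3.29 to -3.07). A gene that is scarce in the knockdown library can pass the filter of 1 CPM through the control library alone.

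Other members of that list, chosen after their values were seen, include enzymes that act on the final residue, whose codon is in capitals above. Svbp, which encodes the partner of the vasohibin enzymes that remove the final tyrosine, was at 1.46, and Ttl, whose product puts it back, at 0.80. The vasohibin gene Vash1 was at -1.69 and Vash2 at 0.45. Sirt2, a second tubulin deacetylase, was at 0.80, and Atat1, the acetyltransferase that acts on alpha tubulin, at -0.27 (-0.53 to -0.01).

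Microtubule-associated proteins went both ways. Of 15 genes, 8 were lower, 4 higher and 3 neither, at a median log2 ratio of -1.28, where 32.5% of all genes tested were lower and 29.7% higher. Mapt, the tau gene, was counted 549 times in shControl and 1 time in shDmrt1, for a log2 ratio of -8.53 (-14.43 to -6.64). Map7, whose product recruits kinesin to microtubules and is needed for mouse spermatogenesis, had 2176 counts in shControl against 165 in shDmrt1, for a log2 ratio of -3.74 (-3.98 to -3.51). Tppp, which bundles microtubules, had 319 counts in shControl against 22 in shDmrt1, for a log2 ratio of -3.85 (-4.57 to -3.25). Map7d1, a relative of Map7, went the other way with 718 and 4100 counts, giving a log2 ratio of 2.49 (2.38 to 2.61).

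Of 17 tested genes of plus-end proteins, destabilisers and severing enzymes, 6 were higher, 5 lower and 6 neither, and the median log2 ratio was -0.02. By library totals 3 were higher and 8 lower, where 20.6% of all genes tested were higher and 45.6% lower, so this list's counts lie near those of all genes. Clip2, a plus-end tracking protein, had 244 counts in shControl against 933 in shDmrt1, for a log2 ratio of 1.91 (1.71 to 2.12). Stmn2, a neuronal protein that binds free dimers, had 5 counts in shControl against 32 in shDmrt1, for a log2 ratio of 2.54 (1.29 to 4.37). Katna1, the catalytic subunit of the severing enzyme katanin, had 468 counts in shControl against 1125 in shDmrt1, for a log2 ratio of 1.24 (1.09 to 1.40), whereas its relative Katnal2, needed for mouse sperm, had 50 counts in shControl against 11 in shDmrt1, for a log2 ratio of -2.15 (-3.30 to -1.24).

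**Figure D4:**
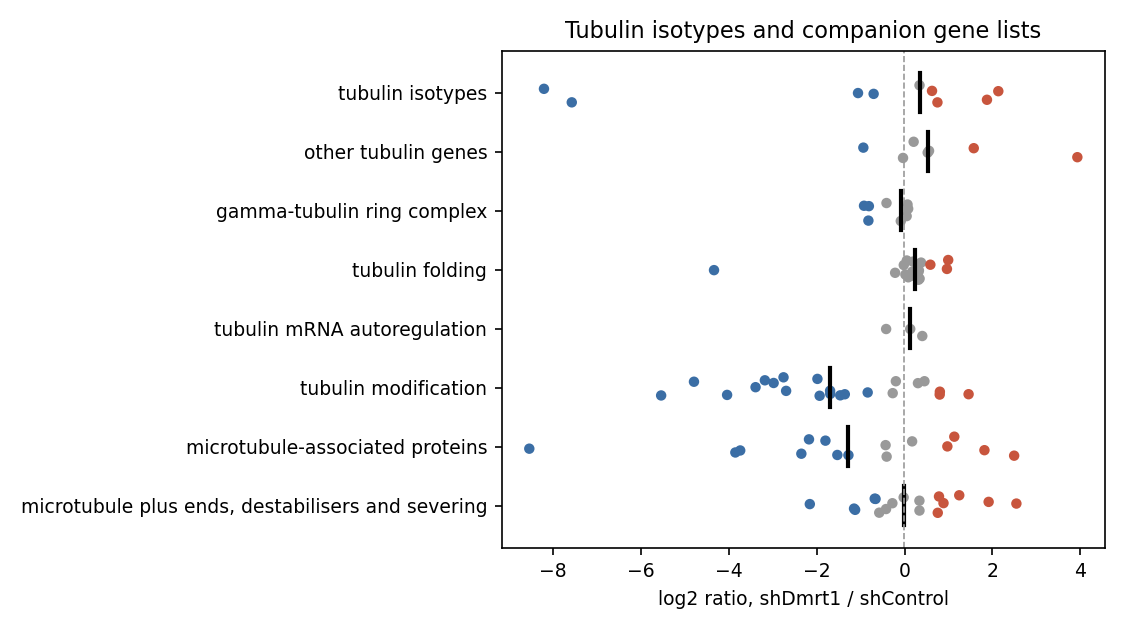
Log2 ratios of the tested genes of each list, with 1 point per gene, red for higher, blue for lower and grey for neither, and genes at 0 counts in 1 library at their bound. Black bars are list medians and the dashed line is the median of all genes tested, -0.02. Tubulin-modifying enzymes have a median of -1.69 and folding genes one of 0.25.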

How the data were processed

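The table deposited by the authors holds a read count and an FPKM value for 18722 loci in each of 2 libraries, per the file headers, and an EBSeq comparison of both libraries. Tools named in the submitters' processing notes, without role or order, were STAR 2.5.3a, Trimmomatic 0.36, Subread 1.5.1 with featureCounts, DESeq and edgeR 3.12.1, and the build was mm10. The library kit keeps strand, per the labels' protocols. The counted strand, the annotation and the read length were not given in the sources used here. Deposited FPKM per count was nearly the same in both libraries, with a median ratio of 0.996 over genes with at least 50 counts in each, so it is not scaled to the count totals, and 430 loci in shControl and 34 in shDmrt1 have 0 counts but an FPKM above 0.

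Counts were scaled with TMM factors (1.17 shControl, 0.858 shDmrt1) (edgeR 4.0.16, R 4.3.3). The log2 ratio used a prior count of 0.5, and its 95% interval comes from the exact Clopper-Pearson limits on how the gene's reads split between libraries. Reads carry no known molecular identifiers, so intervals and floors cover counting error only. The floor of 3 counts equals 0.168 CPM (shControl) and 0.122 CPM (shDmrt1). Genes with at least 1 CPM in 1 library were tested. FPKM served for levels between genes and for shares of a subunit. The procedure was tested on simulated data. Alternatives were size factors from DESeq2 1.42.0, library totals, a prior count of 5, FPKM with a pseudocount of 0.1, no filter, the whole interval beyond 2-fold, means, bounds and shares of counts.

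The members and the 7 companion and 15 marker lists were chosen with earlier results of these data known. Named were all isotypes, Dmrt1, the other tubulin genes and, of each further list, up to 4 genes past the 1.5-fold rule whose interval bound nearest 0 lay farthest from 0. The genes of the list on tubulin message degradation, further tubulin-modifying enzymes, single markers and motor genes were named after their values were seen. GENCODE M21 gave gene positions (GRCm38, which is mm10) and coding sequences from 1 transcript per gene, that with the longest coding sequence. Identity was taken from global alignments (Biopython 1.88). Python 3.11.15, numpy 2.4.6, pandas 2.3.3 and scipy 1.17.1 were used. Some sequences are not reported here.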

Additional observations from a re-analysis of the deposited data

How the results depend on the processing

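No paired analysis was possible because only 1 library stands for each condition, which also means that leaving one out gives no value. No isotype past the 1.5-fold rule changed sign under any alternative run. Library totals moved the ratios of 7 of the 9 isotypes beyond their counting intervals, a prior count of 5 and FPKM 1 each, and DESeq2 size factors none. The number of isotypes higher was 2 in place of 4 both by library totals and with the whole interval beyond 2-fold, and under the latter the number lower was 2 in place of 4. The median log2 ratio of the isotypes was -0.10 by library totals, and their mean with TMM was -1.60. Over all companion lists, 18 genes were higher and 33 lower with TMM, 9 and 43 by library totals, and 8 and 23 with the whole interval beyond 2-fold. The shares of all genes tested under these settings were 29.7% and 32.5%, 20.6% and 45.6%, and 17.8% and 20.8%. In counts not divided by length, Tubb2a and Tubb2b took 2.81% of beta tubulin in shControl and 7.07% in shDmrt1, against 3.44% and 9.57% in FPKM. Depth limits Tubb1, Tubg2, Tuba8 and Tubb4a, with at most 23 counts in the control library, and a count of 0 for Tuba3b allows up to 0.122 CPM. Of the higher and lower counts recomputed for single companion lists, 70 stayed within 1.5 times and 14 moved.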

Other observations

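Genes of microtubule motors, taken by symbol after the data were examined, were lower more often than higher in the knockdown library. Of 39 kinesin genes tested, 4 were higher, 17 lower and 18 neither, and the median log2 ratio was -0.44, where 29.7% of all genes tested were higher and 32.5% lower. By library totals 2 kinesin genes were higher, 23 were lower and the median was -0.88, where 20.6% of all genes were higher and 45.6% lower. Kif21a had 4891 counts in shControl against 254 in shDmrt1, for a log2 ratio of -4.28 (-4.48 to -4.11), and Kif27 had 203 counts in shControl against 12 in shDmrt1, for a log2 ratio of -4.04 (-5.08 to -3.26). Kif2b had 129 counts in shControl against 1 in shDmrt1, for a log2 ratio of -6.45 (-12.35 to -4.53). Kif26b was counted 0 times in shControl and 327 times in shDmrt1, 107-fold higher against the floor of 3 counts. Of 12 axonemal dynein heavy chain genes tested, 10 were lower, 1 was higher, and the median was -2.62. By library totals 11 were lower and 0 higher. Dnah9 had 603 counts in shControl against 32 in shDmrt1, for a log2 ratio of -4.24, and Dnah2 had 830 counts in shControl against 50 in shDmrt1, for a log2 ratio of -4.06.

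Among 21 genes of cytoplasmic dynein and dynactin, 7 were lower, 3 higher and 11 neither, and the median was -0.08. Of all genes tested 32.5% were lower and 29.7% higher. The share lower was thus near that of all genes, and the share higher was below it. By library totals 0 were higher and 9 lower, beside 20.6% and 45.6% of all genes tested, and the median was -0.53. The copies of the light chain gene Dynlt1 differed among themselves. Dynlt1b had 504 and 0 counts, at least 170-fold lower, Dynlt1a 48 and 0 counts, and Dynlt1f 217 and 1 counts, a log2 ratio of -7.20 (-13.09 to -5.29), whereas Dynlt1c had 177 counts in shControl against 207 in shDmrt1, for a log2 ratio of 0.21. Their sequences are alike, and how reads were shared among them is uncertain. Dync1i1, an intermediate chain gene, had 719 counts in shControl against 29 in shDmrt1, for a log2 ratio of -4.63 (-5.24 to -4.12).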
